A study of Mus musculus with 8 samples.

Results

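Autophagy is the route by which a cell wraps part of its cytoplasm in a double membrane and delivers it to the lysosome. The 38 genes described here encode its core machinery in the mouse, the ER membrane proteins VMP1 and TMEM41B that are needed for the membrane to grow, and the receptors that load cargo. They were taken by gene symbol from a table of 16888 genes, and all 38 were found there. The samples were whole mouse pancreas, all taken after cerulein had been injected repeatedly, which overstimulates acinar cells and causes acute pancreatitis. In 4 samples Anxa1, which encodes the anti-inflammatory protein annexin A1, had been knocked out in myeloid cells (CKO). The other 4 were Anxa1 flox/flox and serve as controls (WT). All 8 samples had received cerulein, so no untreated pancreas is compared here. The labels used here give neither the Cre driver, the deleted part of Anxa1, nor the age of the mice. Nothing in them ties the replicates to separate mice, so p-values reflect only how far these samples spread, which may be technical.

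Formation of the autophagosome runs through protein complexes in sequence. The ULK kinase complex starts it, a PI3 kinase complex built on Beclin 1 marks the membrane with a lipid, WIPI proteins read that mark, and ATG2 and ATG9 supply lipid. A pair of ubiquitin-like reactions then attaches ATG8 proteins, the LC3 and GABARAP families, to the membrane, where they bind cargo receptors such as p62. In the acinar cell, stalled autophagy with large vacuoles is a known feature of pancreatitis, and mice that lack Atg5 or Atg7 in the pancreas develop pancreatic damage. Vmp1 was first described as a transcript induced in the pancreas of rats with acute pancreatitis. Transcript levels, which are what was measured here, do not show how fast autophagosomes are made or cleared.

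Levels are given as RPKM, reads per kilobase of gene scaled to the reads of the library. Levels of different genes can be compared per length, and rest on the length used for each gene. Reads and library totals were recovered from the RPKM values, and for all 38 genes the 8 values came out as whole reads. Library totals lay between 30469002 and 34359802 reads, and 3 reads per 1 kb of gene were worth 0.0873 to 0.0985 RPKM, a floor that covers counting error only. The scarcest of the 38 genes, Atg10, had at least 19 reads in each library. Anxa1 itself, on chromosome 19, was at 4.84, 4.76, 5.21 and 7.13 RPKM in CKO1 to CKO4 and at 8.44, 14.7, 7.05 and 9.74 RPKM in WT1 to WT4 (log2 change -0.73, limma adjusted p = 0.0417). This call was lost under 11 of 17 alternatives, among them limma-voom, median centring and the omission of CKO1, CKO2, CKO3, WT1, WT2 or WT4, and the adjusted p ran from 0.0344 to 0.129 while every estimate stayed below 0. CKO4 lay just above WT3, so the ranges overlapped, and the label places the knockout in myeloid cells only. The 11 acinar markers summed to 284000 to 330800 RPKM in CKO and 290400 to 320100 RPKM in WT, so the labelled tissue showed its defining transcripts in every library.

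CKO was compared with WT by limma on the scale log2(RPKM + 1) across all 8513 genes that reached 1 RPKM in at least 4 libraries, at a Benjamini-Hochberg adjusted p of 0.05. Of the 38 autophagy genes 31 passed this filter, and 0 of them did so through 1 group only. Map1lc3a, Vmp1 and Atg101 fell in CKO, and none of the 31 rose. That is 3 of 31 lower (9.68%), against 5.74% of all tested genes, and 0 of 31 higher, against 1.42% of all tested genes. At an unadjusted p under 0.05 there were 7 lower members (22.6%) and 2 higher ones (6.45%), against 22.7% and 4.6% of all tested genes. By the unadjusted rule the members' share was close to the background. By the adjusted rule the lower calls were 3 genes, too few to set the members apart from the background. The members were also chosen with earlier results of these data known. The median log2 change of the 31 was -0.11, beside -0.12 for all tested genes, and 19 of the 31 lay below 0 (61.3%), beside 70.4% of all tested genes. This balance depended on the scaling. Median centring left 1 of the 31 lower and 2 higher, and over all genes it moved the split from 121 higher and 489 lower to 305 higher and 267 lower. Totals without the acinar enzymes gave 236 higher and 411 lower genes, and removal of a trend on gene length 353 and 242. Median centring and removal of the length trend bring the median change near 0 by design, so a more even split was built in.

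**Figure D1:**
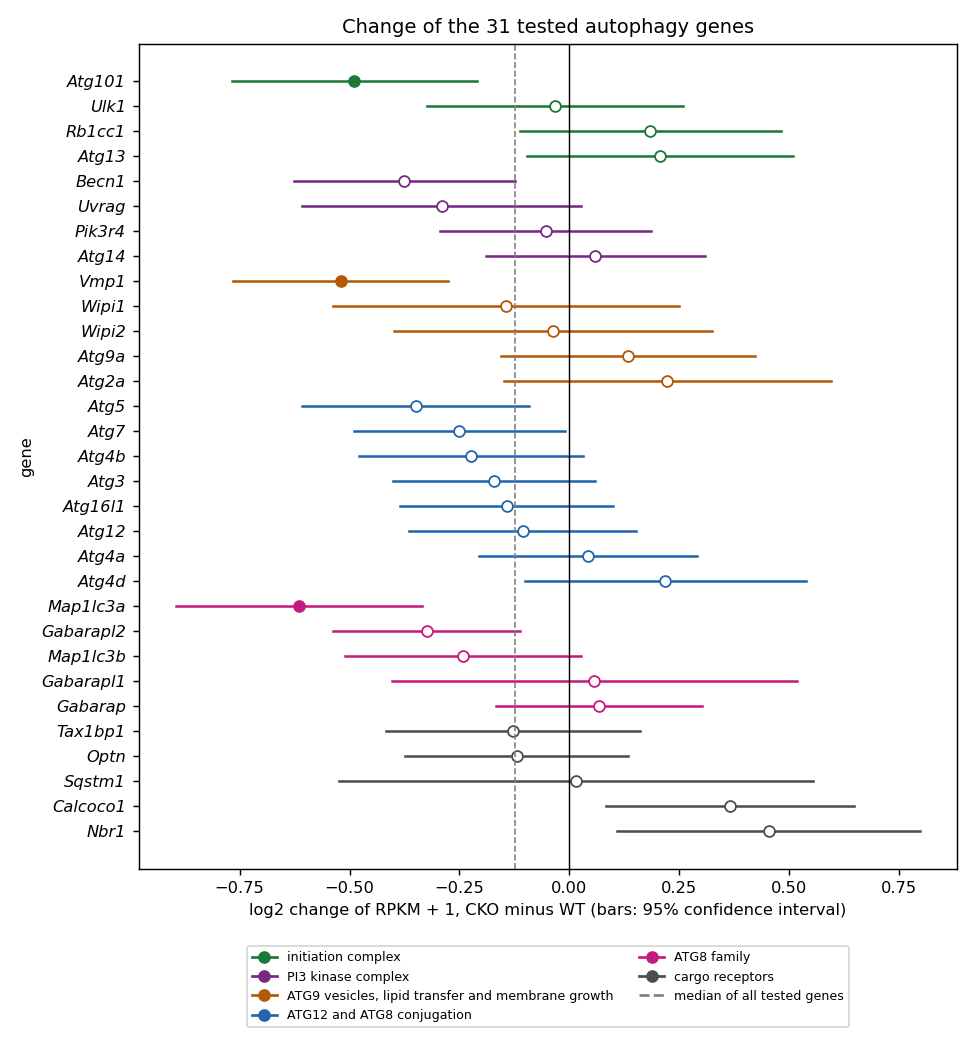
Log2 change of RPKM + 1 (CKO minus WT, horizontal axis) with its 95% confidence interval for each of the 31 tested genes, coloured by role; filled circles passed an adjusted p of 0.05 and the dashed line is the median of all tested genes (-0.12). Map1lc3a, Vmp1 and Atg101 are the filled circles at the low end, and Nbr1 and Calcoco1 have the highest estimates.

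Sequences around the start sites of called genes are shown first, because a change in transcript level may be looked at against the promoter. RefSeq promoters, which run from 250 bases before to 50 bases after a start, were held for 31 of the 38 genes (36 windows, build GRCm38.p6). The windows were searched on both strands for CACGTG (the E-box at the core of the TFEB motif), TGATGNAA (an ATF4-CEBP element), TGANTCA (an AP-1 site) and TGACNNNGC (an NRF2 element), of which the AP-1 and NRF2 letters can match overlapping bases. The first window of Vmp1, chr11:86683787-86684086 on the minus strand, held 1 NRF2 element, and the window of Atg101, chr15:101284051-101284350 on the plus strand, held none of the 4 motifs. Map1lc3a is named only. Atg5 was not called, and its window, chr10:44268089-44268388 on the plus strand, is given only as an example with an E-box. The windows of Atg3, Atg7 and Atg14 also held an E-box. The sequences run 5′ to 3′ with motif matches in capitals.
Vmp1: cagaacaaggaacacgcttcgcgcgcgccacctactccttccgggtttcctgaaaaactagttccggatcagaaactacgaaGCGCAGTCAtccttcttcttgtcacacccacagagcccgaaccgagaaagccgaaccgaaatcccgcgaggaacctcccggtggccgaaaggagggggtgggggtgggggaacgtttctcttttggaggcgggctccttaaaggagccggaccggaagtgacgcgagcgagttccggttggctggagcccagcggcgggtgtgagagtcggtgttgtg
Atg101: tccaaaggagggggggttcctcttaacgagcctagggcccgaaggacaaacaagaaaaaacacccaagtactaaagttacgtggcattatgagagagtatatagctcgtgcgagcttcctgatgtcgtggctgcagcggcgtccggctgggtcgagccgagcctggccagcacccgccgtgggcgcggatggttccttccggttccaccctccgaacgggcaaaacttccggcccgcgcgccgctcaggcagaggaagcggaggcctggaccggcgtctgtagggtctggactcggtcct
Atg5: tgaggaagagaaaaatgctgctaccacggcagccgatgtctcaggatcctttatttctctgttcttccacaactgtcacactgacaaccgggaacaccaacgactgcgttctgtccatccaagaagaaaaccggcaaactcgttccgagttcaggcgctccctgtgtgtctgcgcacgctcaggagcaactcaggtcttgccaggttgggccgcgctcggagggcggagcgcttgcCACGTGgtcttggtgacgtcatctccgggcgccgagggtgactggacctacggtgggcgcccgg

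Across the 36 windows, an E-box stood in 4, those of Atg3, Atg5, Atg7 and Atg14, and in 7.15% of all 32817 promoters. NRF2 elements stood in 7 windows of Atg13, Map1lc3b, Tax1bp1, Ulk2 and Vmp1, and in 12.4% of all promoters. The further Vmp1 windows also held 1 NRF2 element each, so the 7 windows are not separate genes. The ATF4-CEBP and AP-1 letters were in 0 of the 36 windows, and in 3.97% and 7.81% of all promoters. A match is only a run of letters, and no match says only that these letters are not in the window.

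The ULK complex that starts autophagy held 1 of the 3 called genes. Atg101, which encodes a stabilising subunit that binds ATG13, was at 8.52, 10.7, 9.88 and 7.57 RPKM in CKO1 to CKO4 and at 13.2, 11.8, 12.6 and 15.2 RPKM in WT1 to WT4. Every CKO library lay below every WT library, with the gap between CKO2 and WT2. The CKO mean of 9.16 ± 1.39 RPKM compared with 13.2 ± 1.45 RPKM in WT (SD, n = 4), so it fell by 30.7% (log2 change -0.49, SE 0.13, limma adjusted p = 0.0413). This call was close to the threshold. It was lost under 12 of 17 alternatives, among them each omission of a library other than CKO3. The adjusted p ran from 0.0411 to 0.105 over the alternatives, with the highest value when WT1 was left out. Its partners did not pass. The kinase gene Ulk1 was at 2.49, 3.25, 3.18 and 3.4 RPKM in CKO1 to CKO4 and at 3.03, 3.16, 4.04 and 2.53 RPKM in WT1 to WT4, with a log2 change of -0.03 (95% interval -0.32 to 0.26, limma adjusted p = 0.902) that turned positive with median centring, with totals without acinar enzymes and with the length trend removed. The WT values spanned all but the lowest CKO value. Rb1cc1, the FIP200 scaffold, averaged 2.59 RPKM in CKO and 2.15 RPKM in WT, and Atg13 9.67 and 8.29 RPKM, with overlapping libraries for both. Ulk2, the second kinase, was at 0.571 to 1.26 RPKM over the 8 libraries and was not tested.

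In the Beclin 1 complex no gene passed. Becn1, the regulatory core, was at 13.7, 16.0, 16.8 and 12.5 RPKM in CKO1 to CKO4 and at 19.0, 20.2, 20.1 and 18.1 RPKM in WT1 to WT4. The groups did not overlap, and the means were 14.8 ± 1.99 and 19.3 ± 0.995 RPKM (SD, n = 4; log2 change -0.38, SE 0.12, limma adjusted p = 0.0687). Becn1 is 1 of 8 tested members whose libraries were all lower in CKO (25.8%), a pattern shown by 16.2% of all tested genes. The others are Atg101, Atg3, Atg5, Atg7, Gabarapl2, Map1lc3a and Vmp1. The reverse order, every CKO library above every WT library, was found in 0 members and in 2.46% of all tested genes. Becn1 crossed the threshold with totals that left out the acinar enzymes (0.0441) and without CKO3 (0.0442). An annotated exon of it overlaps Cntd1 on the other strand, and whether reads were counted by strand is not stated. Exons of other members, among them Map1lc3b, Gabarapl1, Atg9a, Atg4b and Atg4d, also lie within the span of other annotated genes. For Map1lc3b and Atg9a these include genes on the same strand, Gm20388 and Gm29253. The lipid kinase itself, Pik3c3 (VPS34), was at 0.786 to 0.823 RPKM in CKO and 0.706 to 0.901 RPKM in WT and was below the filter. Its regulatory subunit Pik3r4 was at 1.61 to 1.70 RPKM in CKO and 1.36 to 2.03 RPKM in WT. Pik3c3 had 357 to 460 reads at a length of 15890 bases, and Pik3r4 had 204 to 321 reads at 4922 bases. Pik3c3 thus had more reads, and its place below the filter rests on the length used. Of the subunits that direct the complex, Atg14, which sends it to new autophagosomes, averaged 1.62 and 1.504 RPKM in CKO and WT. Uvrag, which acts on endosomes and late autophagosomes, averaged 1.31 and 1.85 RPKM, with WT4 (1.14 RPKM) inside the CKO range (limma adjusted p = 0.221). By level per length, Becn1 stood above each of these partners in all 8 libraries.

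Vmp1 was the called gene among those that supply and shape the membrane. It encodes a multispanning ER protein that scrambles lipids between membrane leaflets. In CKO1 to CKO4 it was at 12.1, 13.2, 12.9 and 11.5 RPKM, and in WT1 to WT4 at 16.9, 16.9, 17.98 and 21.5 RPKM. All CKO libraries were below all WT libraries, and WT4 was the highest. Its CKO libraries averaged 12.4 ± 0.788 RPKM and its WT libraries 18.3 ± 2.16 RPKM (SD, n = 4), so it fell by 32.2% (log2 change -0.52, SE 0.11, limma adjusted p = 0.0215). The call was kept under 15 of 17 alternatives and missed the threshold with median centring (0.0546) and without WT4 (0.0540), while the log2 change ran from -0.56 to -0.41 over all 17. Vmp1 lies on chromosome 11 from 86583865 to 86683836 (minus strand, mm10). The hairpin of the microRNA gene Mir21a (86584067 to 86584158, same strand) lies inside the gene and touches an annotated Vmp1 exon, so reads of its primary transcript there cannot be told apart from those of Vmp1. Tmem41b, the other scramblase of this kind, was at 0.386 to 0.988 RPKM in CKO and 0.544 to 1.30 RPKM in WT and was not tested. Per length, Vmp1 was thus more abundant than Tmem41b in each library.

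None of the tested lipid transfer and WIPI genes passed. Atg2a, the main ATG2 of this tissue by level, averaged 12.7 ± 2.27 RPKM in CKO and 10.8 ± 2.55 RPKM in WT, and Atg2b, which was below the filter and not tested, averaged 1.13 and 0.792 RPKM. Atg9a, the transmembrane scramblase of the seed vesicles, averaged 6.12 and 5.47 RPKM. Wipi1 and Wipi2 encode readers of the PI3 kinase mark. Wipi2, which recruits the ATG16L1 complex, was at 28.1 to 46.7 RPKM in CKO and 31.5 to 45.4 RPKM in WT, and Wipi1 at 7.90 to 14.3 and 10.3 to 17.01 RPKM. For each of these genes the libraries of the groups overlapped, and CKO1 was the lowest CKO library for all 5.

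The conjugation genes encode the ubiquitin-like enzymes that join ATG12 to ATG5 and ATG8 proteins to lipid. None of the 8 tested members passed, and 6 of the 8 had a negative estimate (list median -0.16). Atg5, the acceptor of ATG12, was at 5.46, 5.71, 5.78 and 4.45 RPKM in CKO1 to CKO4 and at 7.42, 7.22, 7.55 and 6.14 RPKM in WT1 to WT4. CKO4 and WT4 were the lowest of their groups, which did not overlap. The means were 5.35 ± 0.616 and 7.08 ± 0.642 RPKM (SD, n = 4; log2 change -0.35, SE 0.12, limma adjusted p = 0.0867). Atg7, the activating enzyme of both reactions, was at 3.22, 3.33, 4.07 and 3.503 RPKM in CKO1 to CKO4 and at 4.21, 4.15, 4.77 and 4.38 RPKM in WT1 to WT4. CKO3, the highest CKO library, lay just below WT2. Its log2 change was -0.25 (SE 0.11, limma adjusted p = 0.170). Atg3, which transfers ATG8 proteins to lipid, was also lower in each CKO library than in any WT library, at 11.1 to 13.2 against 13.4 to 14.8 RPKM (limma adjusted p = 0.311).

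The remaining conjugation genes overlapped between the groups. Atg16l1, which places the enzyme complex on the membrane, averaged 5.01 RPKM in CKO and 5.62 RPKM in WT, and its relative Atg16l2, which was not tested, 1.04 and 0.943 RPKM. Atg12 averaged 2.27 and 2.52 RPKM, and Atg10, which transfers ATG12 and was not tested, 0.384 and 0.436 RPKM. The ATG4 proteases, which trim ATG8 proteins and release them from lipid, differed in the sign of their estimates. Atg4b averaged 7.29 ± 0.991 RPKM in CKO and 8.65 ± 0.541 RPKM in WT (log2 change -0.22), while Atg4d averaged 13.5 ± 1.63 and 11.6 ± 2.26 RPKM (log2 change 0.22) and Atg4a 1.13 and 1.07 RPKM. None of the 3 passed.

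**Figure D2:**
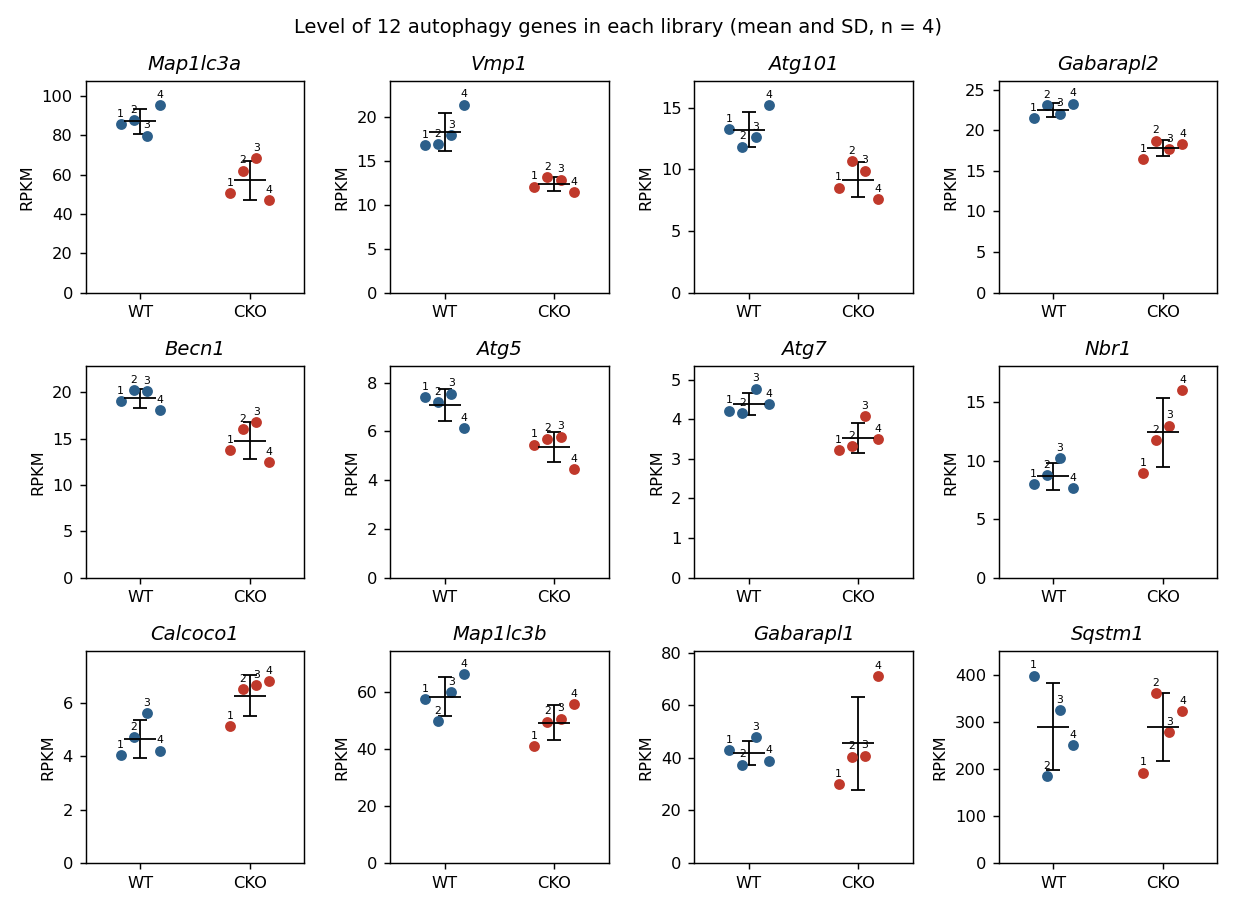
RPKM of 12 genes in each library (points, numbered by replicate; vertical axis starts at 0), with the mean and SD of 4 libraries per group. CKO and WT points separate for Map1lc3a, Vmp1, Atg101, Gabarapl2, Becn1, Atg5 and Atg7, and overlap for the other 5.

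The ATG8 family held the gene with the largest change of the 31. Map1lc3a, which encodes LC3A, was at 50.5, 62.1, 68.5 and 47.1 RPKM in CKO1 to CKO4 and at 85.5, 87.6, 79.8 and 95.4 RPKM in WT1 to WT4. CKO1 and CKO4 were the lowest, and the highest CKO library stayed below the lowest WT library. The CKO libraries averaged 57.0 ± 9.98 RPKM and the WT libraries 87.1 ± 6.42 RPKM (SD, n = 4), so it fell by 34.5% (log2 change -0.61, SE 0.13, limma adjusted p = 0.0186). It was called under 15 of 17 alternatives and missed the threshold without WT1 (0.0515) and without WT4 (0.0536). Map1lc3a lies on chromosome 2 from 155276297 to 155278073 (plus strand, mm10). Its gene length behind the RPKM was 1045 bases, and with the length trend removed its log2 change was -0.39 (limma adjusted p = 0.0289).

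The other 4 family members did not pass. Gabarapl2, also called GATE-16, was at 16.5, 18.7, 17.6 and 18.3 RPKM in CKO1 to CKO4 and at 21.5, 23.1, 22.1 and 23.3 RPKM in WT1 to WT4. Its groups were tight and apart, with means of 17.8 ± 0.976 and 22.5 ± 0.854 RPKM (SD, n = 4; log2 change -0.32, SE 0.10, limma adjusted p = 0.0640). Its length behind the RPKM was 980 bases, and with the length trend removed the log2 change was -0.098 (adjusted p = 0.446). Map1lc3b, which encodes LC3B, the usual marker protein of autophagosomes, was at 41.0, 49.5, 50.6 and 55.6 RPKM in CKO1 to CKO4 and at 57.3, 49.8, 59.9 and 66.1 RPKM in WT1 to WT4. WT2 fell among the CKO libraries (log2 change -0.24, 95% interval -0.51 to 0.03, limma adjusted p = 0.229). Gabarapl1 was at 29.9, 40.5, 40.8 and 71.1 RPKM in CKO1 to CKO4 and at 43.0, 37.4, 47.8 and 39.0 RPKM in WT1 to WT4. CKO4 was far above the other 7 libraries and CKO1 below them, and the log2 change was 0.06 (SE 0.21, limma adjusted p = 0.890), or -0.18 without CKO4. Gabarap, the most abundant of the family, was at 134 to 171 RPKM in CKO and 139 to 164 RPKM in WT (log2 change 0.07, limma adjusted p = 0.718).

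Shares within a library do not depend on its total, so the family was also described by its make-up. This description was chosen after the values were seen and has no test. Map1lc3a made up 17.5%, 18.6%, 19.7% and 14.4% of the summed ATG8 RPKM in CKO1 to CKO4 and 24.7%, 25.5%, 22.8% and 24.6% in WT1 to WT4. The CKO shares were all below the WT shares. The ratio of Map1lc3a to Gabarap was 0.333 to 0.402 in CKO (mean 0.367 ± 0.0309 SD) and 0.567 to 0.615 in WT (mean 0.591 ± 0.0213 SD). Gabarap held 41.2% to 52.4% of the sum in CKO and 40.1% to 42.4% in WT, so its share overlapped through CKO4, where Gabarapl1 held 21.8%. The sum itself ran from 289 to 348 RPKM in CKO and from 344 to 388 RPKM in WT. In WT the order from highest to lowest was Gabarap, Map1lc3a, Map1lc3b, Gabarapl1 and Gabarapl2 in all 4 libraries. In CKO4, Map1lc3a (47.1 RPKM) stood below Map1lc3b (55.6 RPKM) and Gabarapl1 (71.1 RPKM).

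**Figure D3:**
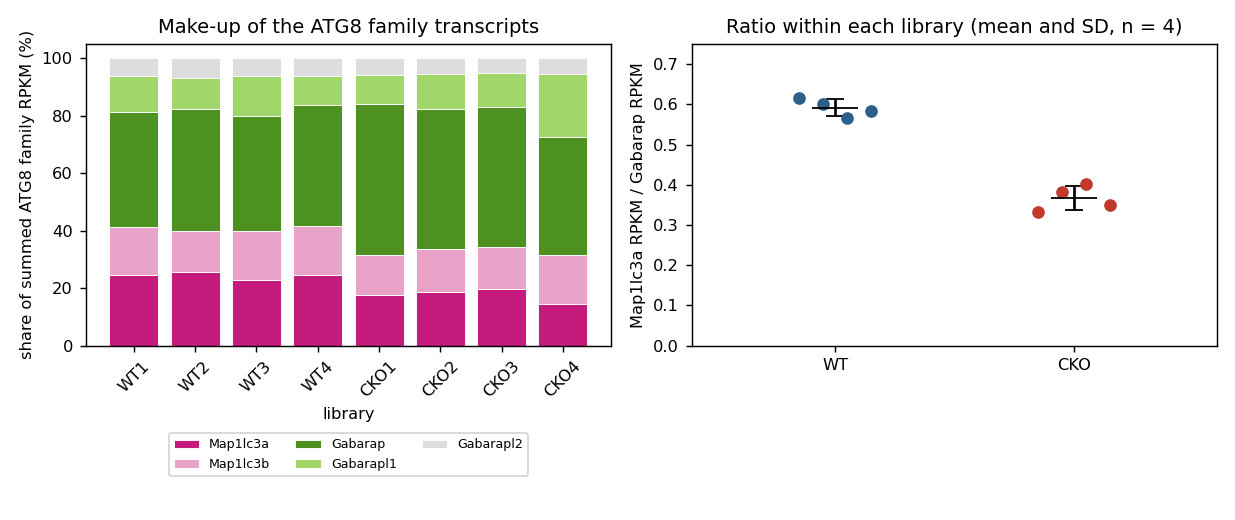
Left, share of each gene in the summed RPKM of the ATG8 family (vertical axis, percent) by library; right, ratio of Map1lc3a to Gabarap RPKM in each library with the mean and SD of 4. The ratio lies at 0.333 to 0.402 in CKO and at 0.567 to 0.615 in WT.

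Among the cargo receptors 0 of 5 passed, and both members with an unadjusted p under 0.05 in the upward direction were here. Nbr1, an aggregate receptor related to p62, was at 8.91, 11.8, 12.998 and 16.01 RPKM in CKO1 to CKO4 and at 8.02, 8.74, 10.3 and 7.67 RPKM in WT1 to WT4. CKO1 lay within the WT range, and the other 3 CKO libraries lay above it. The means were 12.4 ± 2.94 and 8.67 ± 1.14 RPKM (SD, n = 4; log2 change 0.45, SE 0.16, limma adjusted p = 0.0924). Calcoco1, which acts as a receptor for the ER and Golgi, was at 5.12, 6.53, 6.66 and 6.81 RPKM in CKO1 to CKO4 and at 4.05, 4.73, 5.61 and 4.22 RPKM in WT1 to WT4. CKO1 was again the CKO library that overlapped, with WT3 (log2 change 0.37, SE 0.13, limma adjusted p = 0.0948). Nbr1 passed with median centring and without CKO1 (0.0285), and Calcoco1 did so when values were median centred, when acinar enzymes were left out of the totals, and when the length trend was removed.

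Sqstm1, which encodes p62, was the most abundant of the 38 genes and the one with the widest interval. It was at 192, 360, 278 and 322 RPKM in CKO1 to CKO4 and at 398, 184, 324 and 250 RPKM in WT1 to WT4. The lowest libraries, CKO1 and WT2, came from different groups, and the range within each group covered most of the other. The means were 288 ± 72.5 and 289 ± 92.5 RPKM (SD, n = 4), with a log2 change of 0.02 (95% interval -0.52 to 0.55, limma adjusted p = 0.977). The interval takes in changes of either sign. Its lower end lay above the Map1lc3a estimate of -0.61, but it overlapped the Map1lc3a interval (95%, -0.90 to -0.33). The 2 changes are therefore not shown to differ. Part of the annotated gene overlaps Mrnip on the other strand. Tax1bp1, a ubiquitin receptor, averaged 22.7 ± 4.02 and 24.7 ± 2.54 RPKM, and Optn, which acts in mitophagy and against bacteria, 1.95 and 2.22 RPKM, in CKO and WT. Epg5, which tethers finished autophagosomes to late endosomes and lysosomes, was at 0.315 to 0.532 RPKM in CKO and 0.296 to 0.616 RPKM in WT and was not tested.

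**Figure D4:**
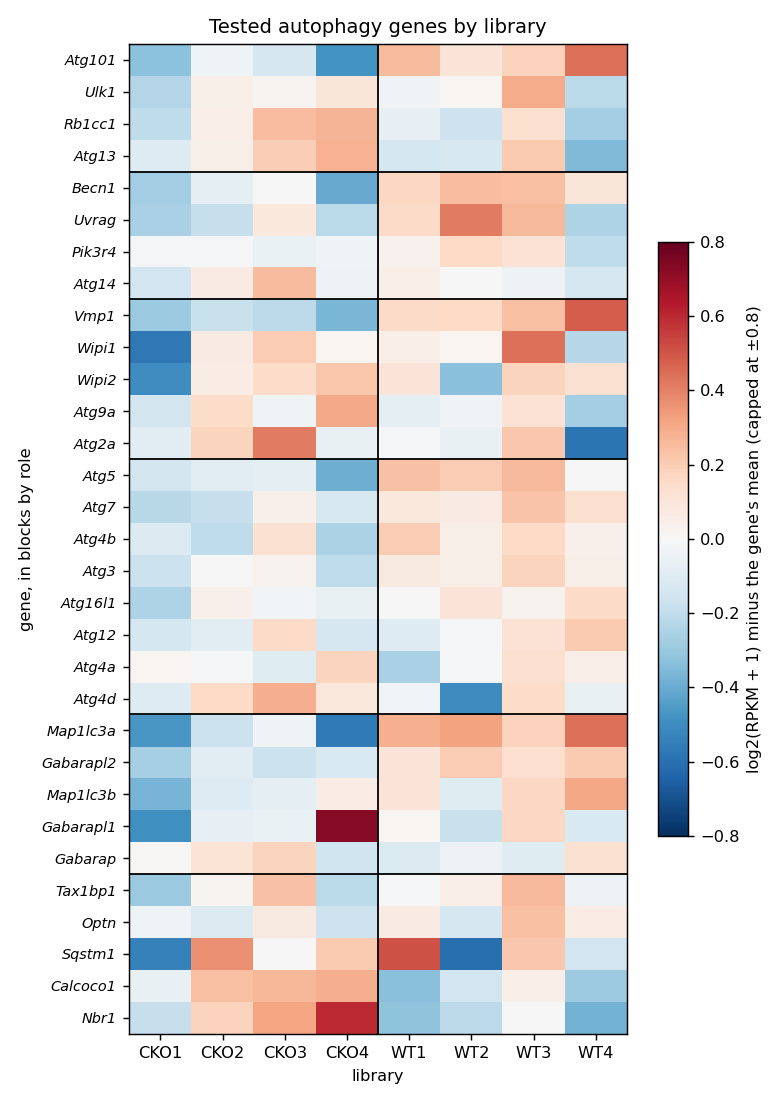
Log2(RPKM + 1) of the 31 tested genes minus each gene's mean over the 8 libraries (colour, capped at ±0.8), with libraries in columns and genes in blocks by role. Map1lc3a and Atg101 are lowest in CKO1 and CKO4 and highest in WT4, Gabarapl1 and Nbr1 are highest in CKO4, and Sqstm1 is lowest in WT2 and CKO1.

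Gene length moved with these changes. With all tested genes in 4 classes of about equal size, from the shortest to the longest, the median log2 change was -0.22, -0.15, -0.11 and -0.04. The 6 members of the shortest class (206 to 1936 bases) had a median of -0.23 and held Map1lc3a and Atg101, and the 5 of the longest class (4988 bases and more) had a median of 0.18. Vmp1 stood in the third class, where the 13 members had a median of -0.12. With the length trend removed, an alternative added after the data were seen, Map1lc3a and Vmp1 (0.0476) were still lower, Atg101 (0.0868) did not pass, and Calcoco1 and Gabarap were higher. The part of length in the results was not tested further.

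**Figure D5:**
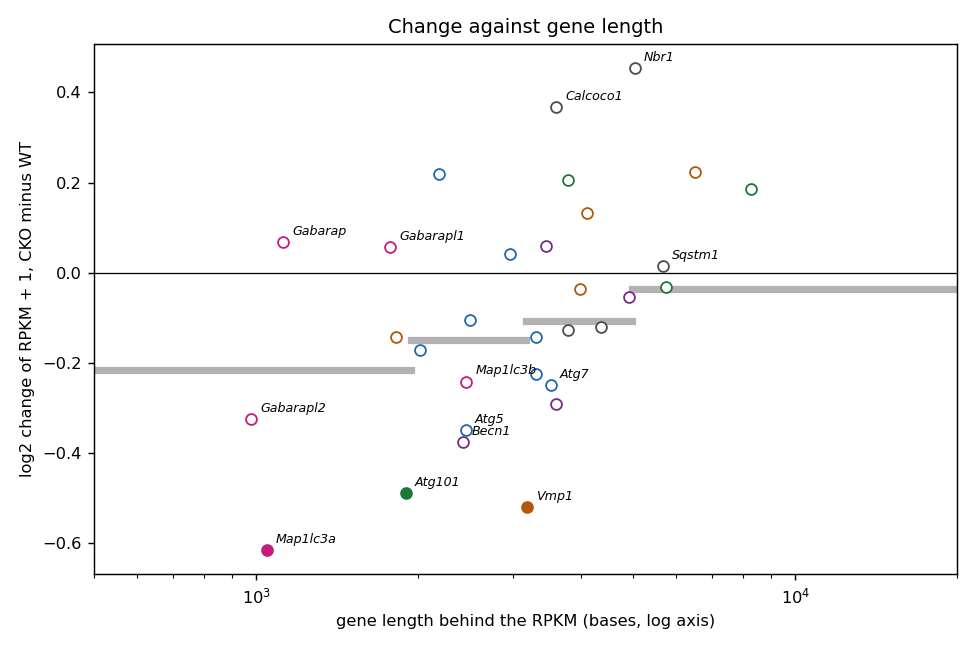
Log2 change (vertical axis) against the gene length behind the RPKM (bases, log axis) for the 31 tested genes, coloured by role as before, with filled circles for those past the threshold; grey bars are the medians of all tested genes in 4 classes of length (-0.22, -0.15, -0.11 and -0.04). Map1lc3a, Atg101 and Vmp1 lie below the bar of their class, and Nbr1 and Calcoco1 above it.

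In whole tissue, fewer cells of a type and less RNA per cell cannot be told apart, and markers of some cell types differed between the groups. The 6 duct markers summed to 276 to 524 RPKM in CKO and 544 to 609 RPKM in WT, without overlap, and 1 of 5 tested was called lower. The 8 macrophage markers summed to 149 to 318 RPKM in CKO and 271 to 539 RPKM in WT, with 0 of 8 called, and the 6 neutrophil markers to 12.6 to 41.8 and 35.3 to 78.6 RPKM, with 0 of 4 called. The 7 islet markers summed to 1303 to 2051 RPKM in CKO and 855 to 1646 RPKM in WT (1 of 7 called higher), and the 7 stellate cell and fibroblast markers to 66.6 to 105 and 57.6 to 126 RPKM (0 of 7 called). WT2 stood apart by its fat cell markers (138 RPKM against at most 39.2 RPKM elsewhere). It was also highest by B and plasma cell markers (13.2 RPKM), followed by WT3 (4.545 RPKM), with at most 0.496 RPKM elsewhere. Without WT2, Map1lc3a (limma adjusted p = 0.0433) and Vmp1 (0.0385) were called and Atg101 (0.0617) was not. The duct markers were lowest in CKO4 and CKO1, as Map1lc3a was, and leaving out WT2 does not bear on them. The part of cell composition in these results was not tested.

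Genes around this machinery were counted from 6 further lists with 61 tested of 74 genes. Of these 61, 1 fell (1.64%, against 5.74% of all tested genes) and 0 rose, with a median log2 change of -0.08 beside -0.12 for all tested genes. The gene that fell was Ykt6, a SNARE that fuses autophagosomes with lysosomes and also serves the secretory pathway. It was at 16.98, 17.5, 19.0 and 13.9 RPKM in CKO1 to CKO4 and at 23.5, 24.9, 24.3 and 22.3 RPKM in WT1 to WT4, without overlap. It fell by 29.0% (log2 change -0.48, SE 0.11, limma adjusted p = 0.0296), and the call was lost without CKO2, without CKO4 or without any 1 of the WT libraries (adjusted p 0.0538 to 0.0796) and with no filter on low values (0.0506). The other 10 tested fusion genes did not pass, among them the SNARE Vamp8, at 92.1 ± 9.35 RPKM in CKO and 104 ± 9.58 RPKM in WT (adjusted p = 0.345).

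Upstream control by nutrients and energy had 0 of 19 tested genes past the threshold. Its widest estimates ran in opposite directions. Sesn2, a stress-induced inhibitor of mTORC1, was at 15.3, 25.2, 22.4 and 25.4 RPKM in CKO1 to CKO4 and at 15.7, 6.90, 17.1 and 11.5 RPKM in WT1 to WT4 (log2 change 0.79, SE 0.25, limma adjusted p = 0.0763). CKO1 was the library that overlapped WT, and without it the adjusted p was 0.0433. Ddit4 (REDD1), another inhibitor of mTORC1, was at 101, 125, 106 and 48.1 RPKM in CKO1 to CKO4 and at 159, 156, 183 and 126 RPKM in WT1 to WT4 (log2 change -0.78, SE 0.25, limma adjusted p = 0.0815). Its CKO libraries were all lower, with CKO2 and WT4 nearly touching. CKO4 was far the lowest, and without it the log2 change was -0.48 (adjusted p = 0.0851).

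The other lists held no gene past the threshold. Of 8 tested ER-phagy receptors, Sec62 was at 15.1 ± 1.05 RPKM in CKO and 18.8 ± 2.03 RPKM in WT and Atl3 at 3.22 ± 0.759 and 4.50 ± 0.842 RPKM (adjusted p = 0.114 and 0.131). Of 11 tested mitophagy and other selective receptors, the prohibitin Phb2 was at 49.6 ± 5.79 and 62.8 ± 1.39 RPKM, with every CKO library below every WT library (adjusted p = 0.0746). Tbk1, a kinase that phosphorylates cargo receptors, had values that were whole reads in 7 libraries at a length of 3031 bases, while its CKO4 value came to 523.733 reads. It was the 1 gene of the 74 with a value that was not whole, so its CKO level is uncertain and no change is given, although it is counted among the 11. An unnamed column of the deposited table, not used here, repeats the Tbk1 values in every library except CKO4, where its value is lower. Of 4 tested genes of the TFEB and lysosome list, the lysosomal membrane proteins Lamp1 (88.9 ± 6.999 and 106 ± 6.17 RPKM, adjusted p = 0.132) and Lamp2 (11.9 ± 1.67 and 14.7 ± 2.17 RPKM, 0.190) came closest. In the list of PI3 kinase partners and WIPI relatives, 8 genes were tested. Ambra1 was at 5.09 ± 1.25 and 4.01 ± 1.02 RPKM (limma adjusted p = 0.344). The WIPI relative Wdr45 was at 6.79 ± 0.893 and 7.60 ± 0.132 RPKM (limma adjusted p = 0.425).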

How the data were processed

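RNA was sequenced from 8 whole pancreas samples, 4 per group, with total RNA extracted by TRIzol and a kit and run on an Illumina instrument, per the labels' protocols. The build was mm10, per the submitters' processing notes; for the aligner, counter, annotation and filters, nothing is stated. The values are RPKM deposited by the authors in 1 table with no unit in its header, a unit read from the numbers. Whole reads, within 0.005, could be recovered for 16055 (99.919%) of the 16068 genes with values in 2 or more libraries; the recovered reads served limma-voom and depth. A further unnamed column was not used (1 in all).

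The comparison used limma 3.58.1 in R 4.3.3 on log2(RPKM + 1), with genes at 1 RPKM or more in at least 4 libraries, an intensity trend, robust variances and Benjamini-Hochberg adjustment over all tested genes at 0.05; intervals are 95%. Folds on this scale understate changes of low genes. Other steps used pandas 2.3.3, NumPy 2.4.6 and SciPy 1.17.1 under Python 3.11.15, with figures by Matplotlib 3.10.9. Positions are from GENCODE M21 and promoters from RefSeq (GRCm38.p6). Recovery and test were also run on simulated data. The values simulated for the test had independent noise, with no trend on gene length and no shift in scaling. They therefore do not bear on how such trends or shifts move the calls. No 2 libraries of a group agreed within sampling noise (chi-square over degrees of freedom 20.1 to 99.6), so none was treated as 1 library deposited again; this does not show that they came from separate mice.

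The members, lists and settings were chosen with earlier results of these data known. Full statistics are given for members past the threshold or with unadjusted p under 0.05 and for Vmp1, Sqstm1, Map1lc3b, Gabarapl1, Becn1, Ulk1, Atg5 and Atg7, and for the up to 2 genes of each further list with the smallest p. Alternatives were a pseudocount of 0.1, no filter, a filter at 2 libraries, variances without a trend, limma-voom, median centring, totals without acinar enzymes, the replicate number as a block, each library left out and, added later, removal of a length trend.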

Additional observations from a re-analysis of the deposited data

Results flagged for a closer look

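The 4 libraries of each group were searched, for each of the 38 genes (76 groups), for 1 library far from the other 3; chance meets this criterion in about 1 in 20 groups, and 3 were found. Atg2b, a lipid transfer gene, was at 0.447 RPKM in WT4 while WT1 to WT3 lay at 0.877 to 0.939 RPKM. Atg12, the ubiquitin-like conjugate of ATG5, was at 2.76 RPKM in CKO3 against 2.07 to 2.18 RPKM in the other CKO libraries. Calcoco1 was at 5.12 RPKM in CKO1 against 6.53 to 6.81 RPKM in the other CKO libraries, and CKO1 was the library in which it overlapped WT.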

How the results depend on the processing

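Over 17 alternatives, 386 of 440 values for 26 named genes kept their direction and their side of the threshold, 34 lost a call, 9 gained one and 11 changed sign. The members called higher numbered 2 with median centring, 1 with totals without acinar enzymes and 2 with the length trend removed, and the members called lower numbered 1 with median centring; leaving out 1 library gave 0 to 1 higher and 0 to 4 lower. Without WT4 none of the 31 members was called (limma, adjusted p), and without WT1 Vmp1 alone was. Genes called over the whole table numbered 610, and 223 (without WT1) to 705 (without CKO1) with 1 library left out; 423 passed with limma-voom. Further pathway genes called numbered 0 to 2 with 1 library left out. With no filter the 1 called was Rragb, named after its values were seen, in place of Ykt6. Rragb was at 0.0355 to 0.0762 RPKM in CKO and 0.112 to 0.147 RPKM in WT, from 6 to 24 reads. Its CKO values lay below the floor of 3 reads per 1 kb of gene. Log2 changes that changed sign were those of Ulk1 with median centring (0.071), totals without acinar enzymes (0.030) and the length trend removed (0.020), and of Vamp8 with the length trend removed (0.071). With 1 library left out, Ulk1 ran from -0.11 to 0.060 (positive without CKO1 or WT3), Gabarapl1 from -0.18 to 0.23 (negative without CKO4) and Sqstm1 from -0.18 to 0.20 (negative without CKO2, CKO4, WT2 or WT4). The cause was not tested.

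The replicate numbers are shared between groups, but same-numbered libraries did not deviate together (correlations -0.32 to 0.14, and only CKO3 matched its own number best). So few libraries cannot show whether a shared day or batch lies behind the numbers. With the replicate number as a block 548 genes were called, the members called lower numbered 2 (Map1lc3a and Vmp1), those higher 0, and the further pathway genes 2 (Ykt6 and Ddit4).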
